A study of Danio rerio with 6 samples.

Results

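Blood stem cell transcription factors are DNA-binding proteins and adaptors that set up and maintain hematopoietic stem and progenitor cells (HSPCs). The set described here holds 10 zebrafish genes chosen by name, which are runx1, gata2a, gata2b, tal1, lmo2, gfi1aa, gfi1b, meis1b, cebpa and ikzf1. All 10 symbols were matched to Ensembl identifiers among the 26375 identifiers counted in each library. The data are RNA-seq read counts from total RNA of tail tissue at 3 days post fertilization (dpf), which the labels call trunk and which includes the caudal hematopoietic tissue (CHT). The 3 sibling libraries are labelled mettl16+/+ and untreated. The other 3 libraries come from mettl16-/- embryos of a CRISPR/Cas9 line that carries a short deletion in mettl16, the gene of an RNA methyltransferase that writes N6-methyladenosine. The tails of many genotyped embryos were pooled for each library. Neither the labels nor the methods say whether libraries of the same group came from separate clutches, so p-values measure the spread between these libraries, which may be partly technical.

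The CHT of the zebrafish tail is where HSPCs settle after they leave the wall of the dorsal aorta, and they multiply there before they seed the thymus and kidney. A core group of regulators, named after SCL (the protein of tal1), LMO2, GATA2 and RUNX1, binds DNA together in blood stem cells of mammals, while GFI1 proteins repress, and C/EBP alpha and Ikaros steer progenitors towards myeloid and lymphoid fates. Few of these genes belong to HSPCs alone. Endothelium uses tal1, lmo2 and gata2a, spinal interneurons use tal1 and gata2a, and meis1b is active in neural and fin tissue. In a bulk library a level therefore sums over every cell that uses the gene, and fewer cells of a type cannot be told apart from less RNA per cell.

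Library totals lay between 16239791 and 18541402 counts, and the median identifier had a mean of 63.2 counts per library. The targeted gene mettl16 had 104, 120 and 117 counts in siblings 1, 2 and 3 and 64, 59 and 86 counts in the mettl16-/- libraries 1, 2 and 3, with no overlap between the groups. Its log2 fold change was -0.63 (SE 0.211, 95% interval -1.10 to -0.16, unadjusted p = 0.0131 and adjusted p = 1.0 in edgeR). In an edgeR fit that also held the replicate number as a block, the adjusted p of mettl16 was 0.0683. Skeletal muscle markers summed to 87250 to 111938 CPM in siblings and 103789 to 115032 CPM in mettl16-/- libraries (3 genes matched of 5), where CPM is the count per 1000000 counts of the library after trimmed-mean (TMM) scaling. Primitive erythrocyte markers summed to 1691 to 2288 and 1806 to 2637 CPM (4 of 7), endothelial markers to 132 to 146 and 133 to 151 (6 of 7), neutrophil markers to 46.4 to 52.7 and 43.5 to 52.8 (2 of 5), and macrophage markers to 37.3 to 45.8 and 32.0 to 38.9 (3 of 5). No matched marker of these lists was at 0 in any library.

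The depth of the set was uneven. The 5 genes ikzf1, gfi1aa, gfi1b, gata2b and runx1 had under 50 counts in each library, and together they held 552 counts over the 6 libraries, or 1.62% of the counts of the set. The other 5 genes had over 150 counts in each library. Homeobox gene meis1b alone held 68.8% of the counts of the set. By mean count, meis1b lay above 98.2% of all identifiers, cebpa above 92.5% and gata2a above 74.2%, whereas runx1 lay above 31.1% and gata2b above 32.1%. These are read counts and not levels per transcript length, so they state how many reads a value rests on and do not rank the genes by expression.

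The gene with the most counts was meis1b (ENSDARG00000012078). It encodes a TALE homeodomain protein that binds DNA with Pbx and Hox proteins and maintains blood stem cells in mice. Siblings 1, 2 and 3 held 3592, 4693 and 3912 counts of meis1b, and the mettl16-/- libraries of the same numbers held 3092, 4220 and 3938. The groups overlapped, and replicate 1 was the lowest library in each group. The level was 229 ± 15.5 CPM in the siblings against 221 ± 24.2 CPM in the mettl16-/- libraries (SD, n = 3 each). The log2 fold change was -0.049 (SE 0.106, 95% interval -0.29 to 0.19, edgeR adjusted p = 1.0), and the same interval of the fold ran from 0.820 to 1.14. Counting error alone would give a narrower interval of 0.943 to 0.992 for the ratio of the summed counts after TMM scaling, which was 0.967. That interval leaves out the spread between libraries.

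The gene cebpa (ENSDARG00000036074) encodes C/EBP alpha, which commits progenitors to granulocytes and monocytes and also acts in liver. Its counts were 1081, 1038 and 1118 in the siblings against 904, 1033 and 956 in the mettl16-/- libraries. The mettl16-/- libraries lay close together at 57.1 ± 0.488 CPM, within the range of the siblings at 61.3 ± 7.10 CPM (SD, n = 3 each). Sibling replicate 2 was the lowest of the 6 libraries for cebpa, at 53.4 CPM, and sibling replicate 3 the highest, at 67.0 CPM. The log2 fold change was -0.10 (SE 0.105, 95% interval -0.34 to 0.13, edgeR adjusted p = 1.0).

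The bHLH gene tal1 and the adaptor gene lmo2 of the SCL complex were measured at intermediate depth, with similar mean levels in both groups. The gene tal1 (ENSDARG00000019930), whose protein starts the blood and endothelial programme in mesoderm, had 207, 206 and 208 counts in the siblings against 175, 197 and 218 in the mettl16-/- libraries. These correspond to 11.8 ± 1.01 and 11.7 ± 1.21 CPM (SD, n = 3 each), and the libraries of both groups interleaved. Its log2 fold change was -0.011 (SE 0.145, 95% interval -0.33 to 0.31), which spans folds of 0.794 to 1.24. The gene lmo2 (ENSDARG00000095019) encodes the LIM protein that bridges tal1 and Gata proteins. It had 176, 218 and 178 counts in the siblings against 182, 201 and 157 in the mettl16-/- libraries, or 10.7 ± 0.424 and 10.7 ± 1.09 CPM (SD, n = 3 each). Its log2 fold change was -0.012 (SE 0.143, 95% interval -0.33 to 0.31), and for tal1 and lmo2 the edgeR adjusted p was 1.0.

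The duplicated gata2 genes differed widely in counts. In zebrafish gata2b acts in the hemogenic endothelium upstream of runx1, while gata2a acts in vessels and neurons. The gene gata2a (ENSDARG00000059327) had 241, 245 and 335 counts in the siblings against 207, 261 and 340 in the mettl16-/- libraries. In each group replicate 3 was the highest library, at 20.1 CPM in the sibling and 20.4 CPM in the mettl16-/- library, and the other 4 libraries lay between 12.6 and 14.5 CPM. The log2 fold change of gata2a was 0.032 (SE 0.217, 95% interval -0.46 to 0.52, edgeR adjusted p = 1.0). The gene gata2b (ENSDARG00000009094) had only 8, 14 and 19 counts in the siblings against 14, 6 and 14 in the mettl16-/- libraries, so a library rested on 6 to 19 reads and the groups overlapped. Its log2 fold change was -0.19 (SE 0.522, 95% interval -1.35 to 0.97, edgeR adjusted p = 1.0), and the fold could lie anywhere from 0.392 to 1.96.

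The least deeply measured gene was runx1 (ENSDARG00000087646), whose protein is required for HSPCs to emerge from the aorta. It had 24, 6 and 9 counts in the siblings against 12, 9 and 7 in the mettl16-/- libraries. Sibling replicate 1 stood above the other 5 libraries, at 1.41 CPM against 0.308 to 0.751 CPM. The gene was the only member that the low-count filter of edgeR left out of the test. Without that filter its log2 fold change was -0.42 (SE 0.616, 95% interval -1.75 to 0.91, edgeR adjusted p = 1.0), a fold between 0.298 and 1.87. The direction rested on sibling replicate 1. The ratio of mean CPM, mettl16-/- over sibling, was 0.739 with all libraries and 1.31 without sibling replicate 1.

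GFI1 proteins are zinc finger repressors that, in mice, silence the endothelial programme as blood cells form and recruit the demethylase LSD1, the product of kdm1a. The gene gfi1aa (ENSDARG00000020746) had 15, 16 and 25 counts in the siblings against 14, 29 and 30 in the mettl16-/- libraries, and the groups overlapped. Its log2 fold change was 0.43 (SE 0.419, 95% interval -0.51 to 1.36, edgeR adjusted p = 1.0), the highest of the set. The gene gfi1b (ENSDARG00000079947) had 32, 16 and 9 counts in the siblings against 15, 19 and 7 in the mettl16-/- libraries. Its log2 fold change was -0.42 (SE 0.551, 95% interval -1.64 to 0.81, edgeR adjusted p = 1.0), the lowest among the tested members. The groups overlapped, sibling replicate 1 was again the highest library, and without it the log2 fold change of gfi1b was 0.23.

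The lymphoid regulator ikzf1 (ENSDARG00000013539), which encodes Ikaros, had 45, 32 and 22 counts in the siblings against 35, 28 and 21 in the mettl16-/- libraries. Replicate 1 was the highest and replicate 3 the lowest library in each group. Its level was 1.87 ± 0.695 CPM in the siblings against 1.67 ± 0.476 CPM (SD, n = 3 each), with a log2 fold change of -0.17 (SE 0.373, 95% interval -0.996 to 0.66, edgeR adjusted p = 1.0). Without sibling replicate 1 it was 0.17.

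**Figure D1:**
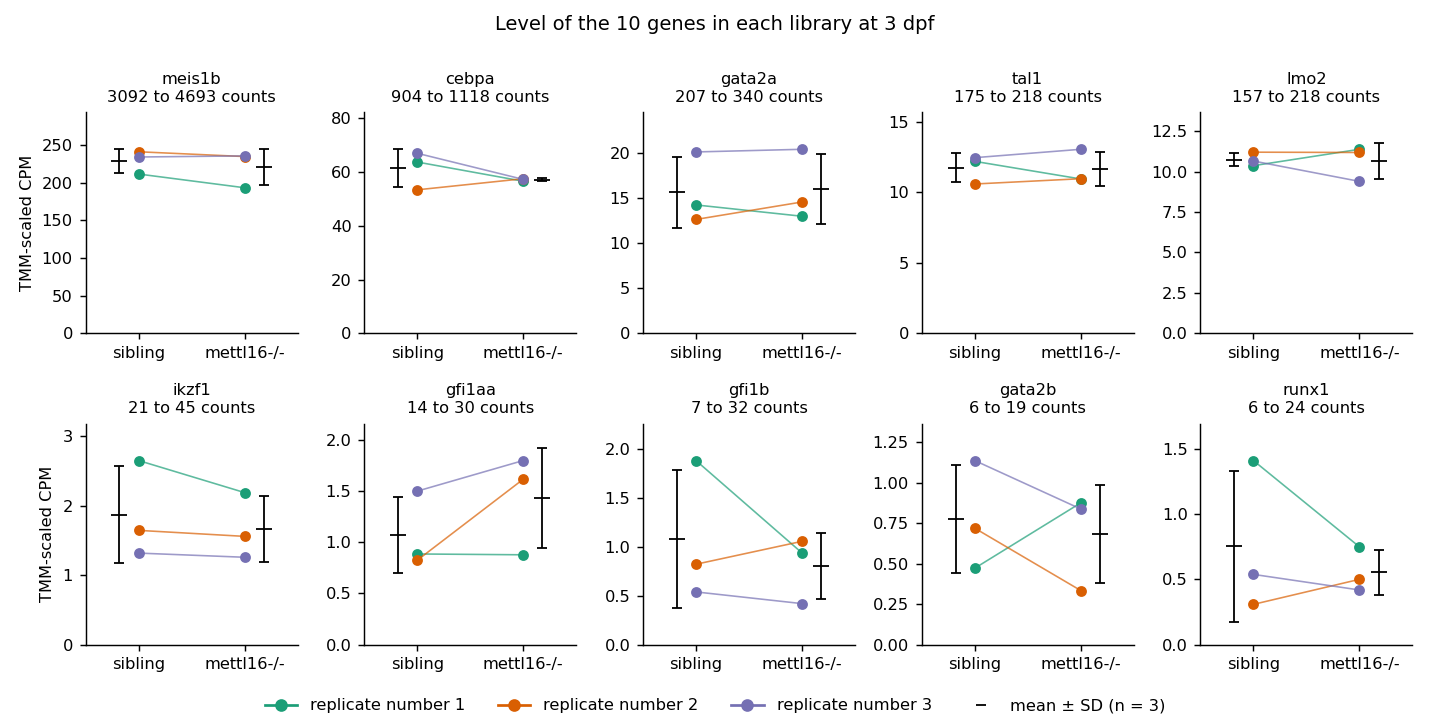
TMM-scaled CPM of each of the 10 genes in the 3 sibling and 3 mettl16-/- libraries, with colours and joining lines for libraries of the same replicate number, bars for the mean and SD, and the lowest and highest count above each panel. In every panel the libraries of both groups overlap, and the 5 genes of the lower row have at most 45 counts in a library.

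No member passed the test between genotypes, which took Benjamini-Hochberg adjusted p-values under 0.05 from the quasi-likelihood test of edgeR over 18487 genes. Of the 9 members tested 0 passed, against 0.124% of all genes in either direction and 0.0108% with lower values in mettl16-/- embryos. At an unadjusted p-value under 0.05 edgeR also gave 0 of the 9, against 2.17% of all genes, and the smallest p was 0.333 for gfi1aa. Without the filter 0 of the 10 members passed in edgeR at an adjusted or an unadjusted p-value under 0.05, against 0.117% and 2.15% of all genes, and DESeq2 gave 0 of 10 at an unadjusted p-value under 0.05, against 1.42% of all genes. The groups separated without overlap in 0 of the 9, against 6.89% of all genes, or 3.43% with lower and 3.46% with higher values in mettl16-/- embryos. Two-sided exact permutation tests of the CPM gave p between 0.30 and 1.0 for the 10 genes, where 3 libraries against 3 allow no p below 0.10. Of the 9 members, 7 had a log2 fold change below 0, as did 50.9% of all genes. The median was -0.049 over the 9 members and -0.0032 over all genes.

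Summed over the 10 genes, the level was 319 to 350 CPM in siblings and 291 to 341 CPM in mettl16-/- libraries. Without meis1b, cebpa and gata2a the other 7 genes summed to 26.1 to 29.9 CPM in siblings and 27.2 to 28.0 CPM in mettl16-/- libraries. For both sums the groups overlapped. Most of the sum of the 7 genes came from tal1 and lmo2, with sibling means of 11.8 and 10.7 CPM out of 28.1 CPM. It therefore says little about the 5 genes with under 50 counts per library. A miss of the threshold does not show equal expression, and the intervals state what remains possible in the edgeR fit above.

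**Figure D2:**
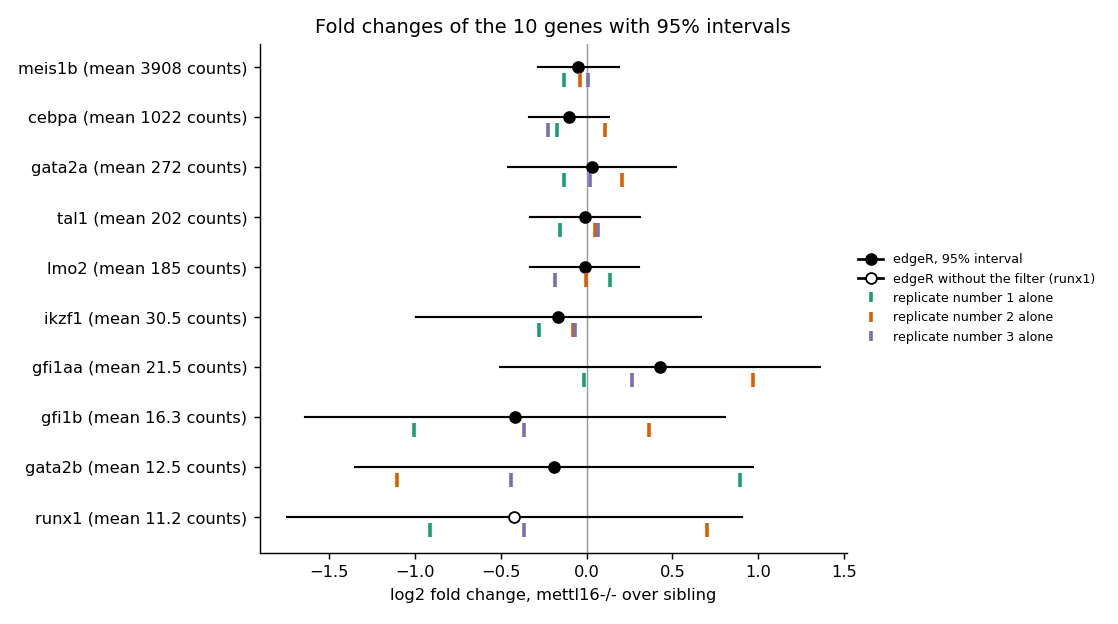
Log2 fold change of each of the 10 genes, mettl16-/- over sibling (horizontal axis), with its 95% interval from edgeR, ordered by mean count, and coloured ticks for the log2 ratio within each replicate number. All 10 intervals include 0, and the 5 genes with under 50 counts per library have wider intervals than the other 5, at -0.29 to 0.19 for meis1b against -1.75 to 0.91 for runx1, whose open point comes from the fit without the low-count filter.

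The 5 genes with under 50 counts per library had wider intervals than the other 5, and within each of these groups the width did not follow the count at every step. In the fit that left the replicate number out, the half-width of the 95% interval was 0.24 log2 units for meis1b and 0.23 for cebpa. It was 0.32 for tal1 and for lmo2, and 0.49 for gata2a. It was 0.83 for ikzf1, 0.93 for gfi1aa, 1.16 for gata2b, 1.23 for gfi1b and 1.33 for runx1. Among all genes tested with a mean under 20 counts per library the median half-width was 1.103, and from 100 to 300 counts it was 0.38. The half-width of gata2a exceeded the latter, and its replicate 3 library stood apart in each group. For runx1 counting error alone amounted to 29.9% of the mean in a library of average depth. The SD amounted to 77.4% of the mean among siblings, where replicate 1 stood apart, and to 31.0% among mettl16-/- libraries. For tal1 the same values were 7.04%, 8.61% and 10.4%. For the summed counts of runx1, 39 in siblings and 28 in mettl16-/- embryos, the ratio after TMM scaling was 0.753. Counting error alone left values between 0.446 and 1.26 possible for this scaled ratio (exact Clopper-Pearson 95% interval, counting error only). For gfi1b, with 57 and 41 summed counts, this interval ran from 0.492 to 1.15. In edgeR, which adds the spread between libraries, the fold had lower bounds of 0.392 for gata2b and 0.320 for gfi1b. Without the filter the lower bound was 0.298 for runx1. A decrease to these bounds was not separable from no change in these fits.

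**Figure D3:**
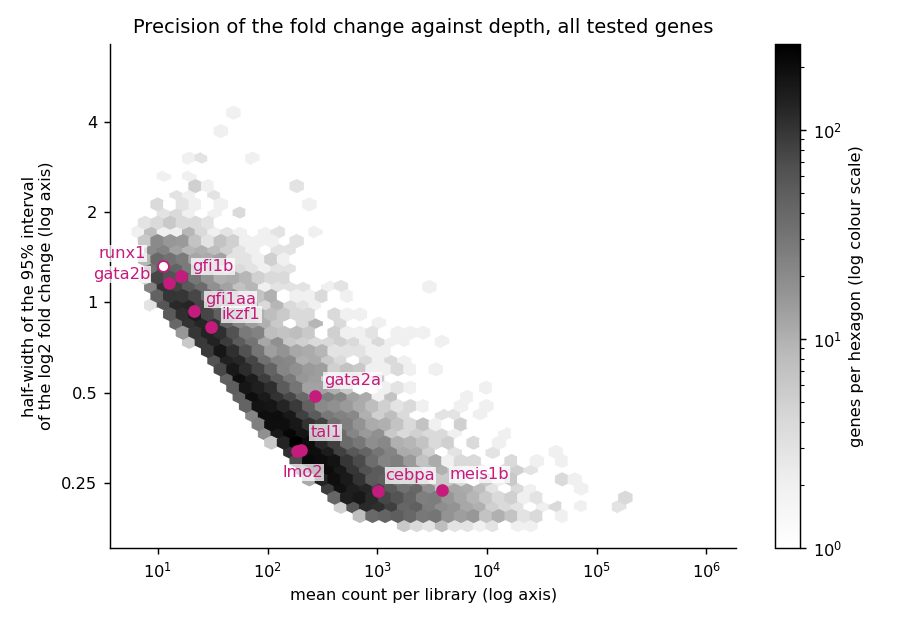
Half-width of the 95% interval of the log2 fold change against the mean count per library for all tested genes (grey hexagons, darker for more genes, both axes logarithmic), with the 10 genes in magenta and runx1 open because it comes from the fit without the filter. The 5 genes with under 50 counts per library have half-widths of 0.83 to 1.33, and meis1b and cebpa have 0.24 and 0.23.

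Libraries of the same replicate number deviated together across all genes, and the members did not show this more often than other genes. The same replicate number was highest in both groups for 5 of the 10 genes and lowest in both for 3, against 56.3% and 54.1% of all genes tested. A test of the replicate number in edgeR, in a fit that also held it as a block and was chosen after the values were seen, passed at an adjusted p-value under 0.05 for 2 of the 9 members, gata2a (adjusted p = 9.97e-04) and meis1b (adjusted p = 0.0101), against 24.7% of all genes. What the number stands for is not stated in the labels or the methods. Within replicate numbers 1, 2 and 3 the log2 ratio of meis1b was -0.13, -0.039 and 0.0091, and that of gata2a was -0.13, 0.21 and 0.021. Only ikzf1 was lower in mettl16-/- embryos in all 3 numbers, at -0.28, -0.078 and -0.068, and 14.9% of genes were lower in this way. With the block, edgeR gave 0 of the 9 members an adjusted p-value under 0.05 between genotypes, against 1.04% of all genes in either direction and 0.395% with lower values in mettl16-/- embryos. At an unadjusted p-value under 0.05 the count was also 0 of 9, against 9.2% of all genes. The smallest unadjusted p-value was that of cebpa, at 0.165, with a log2 fold change of -0.096 (SE 0.0675). The block lowered the SE of each tested member. It was 0.104 for gata2a and 0.0508 for meis1b with the block, against 0.217 and 0.106 without it. The intervals given above come from the fit without the block and so also hold the spread between replicate numbers.

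Binding partners, relatives and early blood genes were then read from lists of 55 symbols, of which 49 matched and 44 were tested. Without and with the block, edgeR gave 0 of the 44 an adjusted p-value under 0.05, against 0.124% and 1.04% of all genes. At an unadjusted p-value under 0.05 there were 2 of 44 without it, against 2.17% of all genes, and 4 with it, against 9.2%. Of the 44, 18 had a log2 fold change above 0 and 26 below 0, with a median of -0.013, where 50.9% of all genes were below 0. The groups separated without overlap in 2 of the 44 with lower and 1 with higher values in mettl16-/- embryos. Over all genes these shares were 3.43% and 3.46%, so such separations were about as frequent in the lists as elsewhere. One list held SCL complex and heptad partners (the wider group of stem cell regulators with Erg and Fli1). Of its 7 tested genes 0 had an unadjusted p under 0.05 in edgeR, against 2.17% of all genes. The smallest p-value there was that of the E protein gene tcf3a, with 48, 56 and 35 counts in the siblings against 60, 29 and 19 in the mettl16-/- libraries (log2 fold change -0.27, SE 0.418). The endothelial ETS factor gene fli1a had a log2 fold change of 0.051 (SE 0.104). The gene cbfb, whose protein partners Runx1 and holds it on DNA, had a log2 fold change of -0.096 (SE 0.130). For gata3, a relative of gata2a used in spinal neurons and lymphocytes, it was 0.12 (SE 0.109). The corepressor genes that Gfi1 proteins use were deeply counted and lay near 0, with a log2 fold change of 0.064 for rcor1 (SE 0.119) and of -4.3e-04 for kdm1a (SE 0.106).

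Among the MEIS relatives and PBX partners, hoxa9a had the smallest p-value. It had 245, 298 and 220 counts in the siblings against 303, 291 and 256 in the mettl16-/- libraries, and each mettl16-/- library exceeded each sibling library after scaling (log2 fold change 0.23, SE 0.134, unadjusted p = 0.114 and adjusted p = 1.0 in edgeR). The Ikaros relative with the smallest p-value, ikzf2, had a log2 fold change of -0.24 (SE 0.288). In the C/EBP family cebpb, a factor of stress-induced granulopoiesis in mice, had 699, 844 and 771 counts in the siblings against 533, 667 and 643 in the mettl16-/- libraries. These were 43.6 ± 2.50 and 36.3 ± 2.67 CPM (SD, n = 3 each) with no overlap, a log2 fold change of -0.26 (SE 0.101, edgeR adjusted p = 1.0, and 0.0663 with the block). The difference of cebpb from cebpa was not tested.

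The HSPC and early blood list held 14 matched genes, 13 of them tested, with a median log2 fold change of -0.089. In edgeR 0 of the 13 passed the adjusted threshold, against 0.124% of all genes. Before adjustment 1 of the 13 had a p under 0.05, against 2.17% of all genes, and 2 with the block, against 9.2%. Of the 13, 9 had a log2 fold change below 0 and 4 above, where 50.9% of all genes were below 0. The smallest p-value of this list was that of myb, also called cmyb, the transcription factor gene by which HSPCs of the CHT are usually marked. It had 283, 301 and 311 counts in the siblings against 238, 242 and 219 in the mettl16-/- libraries. All 3 mettl16-/- libraries lay below the siblings, at 13.8 ± 0.940 against 16.9 ± 1.59 CPM (SD, n = 3 each). The log2 fold change of myb was -0.29 (SE 0.130, 95% interval -0.58 to -0.0026, unadjusted p = 0.0483 and adjusted p = 1.0 in edgeR). With the block its adjusted p was 0.317. The other gene under an unadjusted p of 0.05 with the block lay in the opposite direction. This was hlfa, a factor gene of blood stem cells in mammals, with 439, 563 and 429 counts in the siblings against 427, 631 and 481 (log2 fold change 0.17, SE 0.126, edgeR adjusted p = 1.0, and 0.538 with the block). For nfe2, an erythroid and megakaryocyte factor gene, the log2 fold change was 0.46 (SE 0.423) and the groups overlapped. The thrombocyte and HSPC surface gene itga2b had 8, 7 and 10 counts in the siblings against 5, 16 and 12 in the mettl16-/- libraries, a depth like that of gata2b and runx1, and a log2 fold change of 0.44 (SE 0.524). The remaining gene above 0 was coro1a, at 0.085 (SE 0.149). Besides myb, the log2 fold change was below 0 for spi1a (-0.28), mecom (-0.22), ptprc (-0.15), bcl11aa (-0.13) and spi1b (-0.092). The same held for kita (-0.089), lmo4a (-0.068) and klf1 (-0.0097). For these genes below 0 the SE ran from 0.104 (lmo4a) to 0.443 (bcl11aa).

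Other cell types that use the same factors were read beside them. The 6 tested endothelial genes had log2 fold changes of -0.020 to 0.12. Before adjustment 0 of the 6 had a p under 0.05 in edgeR, against 2.17% of all genes. Their smallest p-value was that of stab2, a gene of the venous vessels of the CHT (log2 fold change 0.10, SE 0.149). Markers of spinal V2b and KA neurons (4 genes) summed to 80.7 to 88.3 CPM in siblings and 79.3 to 94.1 CPM in mettl16-/- embryos. Log2 fold changes of these 4 genes ran from -0.20 (gad2, SE 0.141) to 0.32 (pkd2l1), with 3 above 0 and 1 below. Their smallest p-value was that of pkd2l1, a channel gene of cells that contact the cerebrospinal fluid (log2 fold change 0.32, SE 0.146, edgeR unadjusted p = 0.0555 and adjusted p = 1.0). Among erythrocyte markers alas2, the first enzyme of heme synthesis in red cells, had a log2 fold change of 0.28 (SE 0.132), with an adjusted p of 1.0 in edgeR and of 0.0177 with the block. The muscle actin gene actc1b had a log2 fold change of 0.17 (SE 0.125), with an adjusted p of 1.0 in edgeR and of 0.0423 with the block. The neutrophil gene npsn had a log2 fold change of -0.10 (SE 0.175) and the leukocyte gene lcp1 of -0.18 (SE 0.123). Thymocyte genes were at the edge of detection, with 1 to 24 counts of rag2 in a library and the defining gene lck at 0 to 6, with 0 in at least 1 library of each group. The part of muscle or red cell RNA in the values of the 10 genes was not tested.

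**Figure D4:**
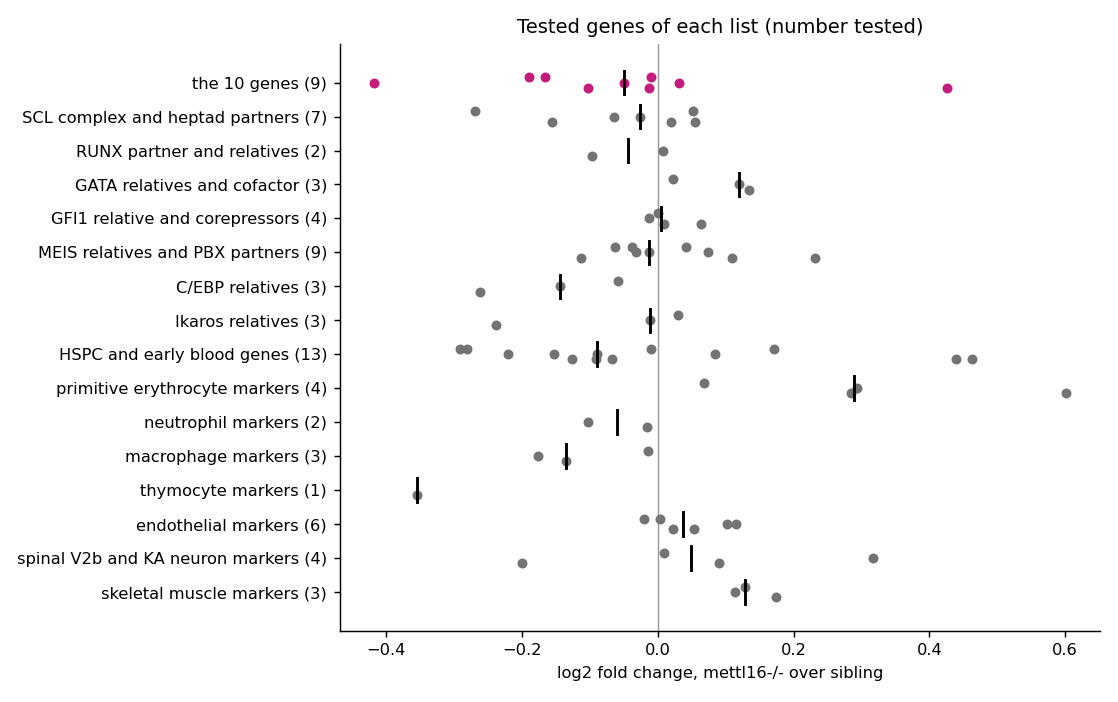
Log2 fold change, mettl16-/- over sibling, of each tested gene in each list (points, with the list's median as a black bar and the number tested in brackets), with the blood stem cell transcription factors in magenta at the top. The 9 tested genes of the set span -0.42 to 0.43 around a median of -0.049. The members with the most counts, meis1b and cebpa, lie at -0.049 and -0.10.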

How the data were processed

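The authors filtered reads with fastp 0.18.0, removed rRNA reads with Bowtie2, mapped pairs to Ensembl GRCz11 with HISAT2, ran StringTie and deposited whole, unnormalized counts per gene for each library. The counting tool, its use of strand and its treatment of reads shared by paralogs are not given in the sources used here, so counts of duplicated or overlapping genes are uncertain. In GRCz12tu 1 other protein-coding gene overlaps gata2a, 1 overlaps gfi1aa and 5 overlap meis1b, which held most counts of the set.

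Symbols came from a table of gene names, for gata2a and meis1b through RefSeq synonyms (GATA2, MEIS1). Of the 94 symbols of the other lists, 75 matched, 5 through the study's supplementary tables. The members and lists were chosen with earlier results of these data known. All members, and in each list the genes that passed or else the gene with the smallest p-value, are named. The genes fli1a, kdm1a, itga2b, hlfa, nfe2 and lck were added after their values were seen. So were the remaining tested genes of the HSPC and early blood list.

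Differential expression was fitted over all 18487 genes kept by filterByExpr with edgeR 4.0.16 in R 4.3.3 (TMM, robust glmQLFit, glmQLFTest), with adjusted p under 0.05 as the threshold. The SE is the absolute log2 fold change over the square root of F. The fits were also run on simulated counts. These held no effect of the replicate number, so that run cannot decide between the fits with and without the block. Same-numbered libraries correlated in their deviations from the group mean at 0.625, 0.345 and 0.553. Different numbers gave -0.481 to -0.0279, but centring on the group mean pushes these below 0 when the same-number values are above it. From the same-number values the numbers were taken to pair the libraries, and a fit with the number as a block was an alternative. Other alternatives were DESeq2 1.42.0, its size factors, no filter, a minimum mean of 50 counts, non-robust estimation and each library left out.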

Additional observations from a re-analysis of the deposited data

How the results depend on the processing

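None of the 10 genes had an adjusted or an unadjusted p-value under 0.05 in any edgeR or DESeq2 fit in which it was tested. The smallest unadjusted p-value was 0.0890, for cebpa without sibling replicate 2. Under the replicate block the count of members called stayed at 0, so it changed no call of a member, while the count over all genes went from 23 to 193. It was 291 with the block and no filter, a fit added after the data were seen, and 60 in DESeq2 on the same genes and 60 in DESeq2 with no filter. Leaving out single libraries gave 3 to 21 genes. The number of tested members with a log2 fold change below 0, also added after the data were seen, was 7 of 9. It was 4 of 5 with a mean of at least 50 counts, because fewer genes were tested, and 5 to 8 with a library left out.

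Directions did not hold for most members when a library was left out. The log2 fold change ranged from -0.18 to 0.25 for gata2a, from -0.44 to 0.18 for gata2b, from -0.099 to 0.035 for tal1 and from -0.060 to 0.071 for lmo2. It ranged from -0.73 to 0.23 for gfi1b, from -0.10 to 0.040 for meis1b and from -0.40 to 0.17 for ikzf1. It kept its sign for gfi1aa (0.23 to 0.75) and cebpa (-0.19 to -0.034). For runx1 it was -0.81 to -0.26 in the 4 fits that kept it, and the filter left it out without sibling replicate 1 or mettl16-/- replicate 1. The 5 genes with under 50 counts per library had wider intervals than the other members. The parts of depth and of spread between libraries in this width were not tested. The intervals, not the p-values, state the range of folds allowed in the fit without the block.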
